A study of Homo sapiens with 6 samples.

Results

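The chromatin distribution of the kinase CDK2 was compared between T47D-MTVL cells exposed to R5020 for 30 min and cells that received no hormone. Each side of the comparison is 1 chromatin immunoprecipitation library sequenced from cells at 1 time. The regions compared are windows of 10 kb on the autosomes, kept where the mean over the 6 libraries of the study was at least 10 reads. They number 263610 of 288113 autosomal windows, and 303641 windows in all. The means nearest to that limit were 10 reads inside and 9.83 outside it, and 20643 of the autosomal windows left out held no read in any library. The windows were also summed to blocks of 1 Mb, of which 2679 had a mean of at least 5000 reads.

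T47D is a human luminal breast cancer line, and T47D-MTVL is a derivative with an integrated reporter gene under a mouse mammary tumour virus promoter. All cells, treated or not, were held in medium with charcoal-stripped serum and then without serum. The treated cells received 10 nM R5020, a synthetic progestin, for 5 or 30 min, and the 0 min cells none. The study paired the CDK2 antibody with an antibody against PARP1, each at 0, 5 and 30 min, to follow how CDK2 activates PARP1 in the progestin response. All values come from 1 cell line with a single library per antibody and time, so replicate error is unknown and no test between conditions was made.

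CDK2 is a cyclin-dependent kinase that acts with cyclins E and A and is best known for driving cells into and through DNA replication. PARP1 is an abundant nuclear enzyme that attaches chains of ADP-ribose to itself, to histones and to other chromatin proteins. Progestins bind the progesterone receptor, which acts on chromatin and also switches on kinase cascades in the cytoplasm within minutes. Human chromosomes differ in gene density: chromosomes 19, 17, 16 and 22 are rich in genes, and chromosomes 4, 13 and 18 are poor in them. Within a chromosome, gene-rich and gene-poor stretches alternate, and many of the gene-rich ones lie towards the ends.

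The CDK2 libraries held 45111064 reads at 0 min and 40097131 at 30 min. The median compared window held 153 and 134 reads. The 30 min library was less even: its variance between neighbouring windows, divided by that of independent reads, was 24.1 against 7.44 at 0 min. At 30 min 389 compared windows were without reads, against 13 at 0 min. Each library was scaled by its total, so every ratio compares shares of a library, not amounts of CDK2. Other scalings raise all CDK2 ratios at 30 min together, by 0.0493 to 0.144 on the log2 scale, and do not alter the contrast between one region and another. Widened intervals below are 95% intervals that use the unevenness of each library, and they stand for reads within these 2 libraries only.

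After 30 min of R5020, chromosomes 22, 19, 16, 17 and 20 held a larger share of CDK2 reads than at 0 min, and chromosomes 4 and 13 had the lowest ratios. The highest ratio of shares to 0 min was on chromosome 22, at 1.24 (widened interval 1.22 to 1.26), where the share went from 0.745% to 0.925% of reads. Chromosome 4 had the lowest, at 0.929 (0.922 to 0.936), with 5.15% and 4.78% of reads. Chromosome 22 relative to chromosome 4 was thus 1.34 times higher at 30 min than at 0 min (widened interval 1.31 to 1.36), a contrast that no scaling changes. Chromosome 19 relative to chromosome 13 was 1.27 times higher (1.25 to 1.30).

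Between these extremes the autosomes formed a graded series. Chromosomes 16, 17 and 20 followed chromosomes 22 and 19, at 1.13, 1.12 and 1.12. A step below them came chromosomes 9 at 1.04 (1.03 to 1.05), 15 at 1.03 (1.02 to 1.04), 10 at 1.02, 1 at 1.02 and 11 at 1.01. The interval held 1 on chromosomes 21, 2 and 14. Chromosomes 7 and 12 had 0.985, 18 had 0.982 and 6 had 0.977. Chromosomes 3, 8 and 5 had 0.965, 0.962 and 0.962, and chromosome 13 had 0.946. With scaling by totals 10 autosomes lay above 1 and 12 below; with edgeR's TMM factors 17 lay above 1, with DESeq2's size factors 20, and with scaling on the 10% of windows that had the lowest mean all 22, while the order of the autosomes is the same under each.

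**Figure D1:**
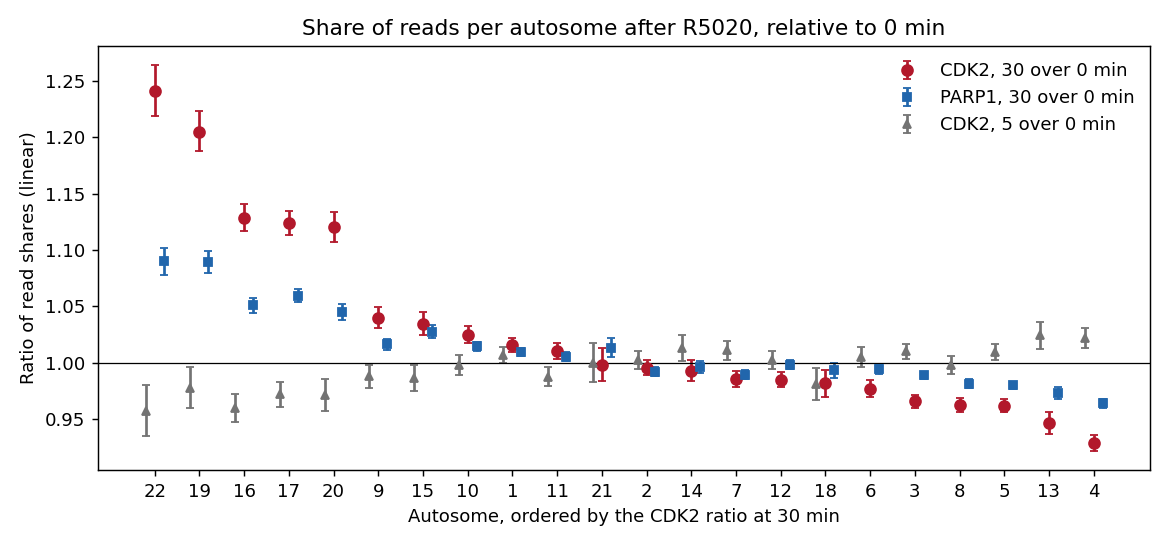
Ratio of read shares to 0 min for each of the 22 autosomes (linear axis), with red circles for CDK2 at 30 min, grey triangles for CDK2 at 5 min and blue squares for PARP1 at 30 min; bars are widened 95% intervals, 1 library a side. CDK2 at 30 min runs from 1.24 on chromosome 22 to 0.929 on chromosome 4, and PARP1 follows a similar order, with some neighbours exchanged, over a narrower range from 1.09 to 0.964.

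The graded order was set beside 2 properties of the chromosomes that the counts do not contain. Gene density was taken as the number of protein-coding genes in the RefSeq table of GRCh38.p14 over the chromosome's length in the deposited table. That length includes stretches without reads: chromosome 22 spans 51.3 Mb but has 3320 compared windows of 10 kb, which lowers its density. Chromosome 19 had 24.5 genes per Mb, chromosome 17 had 14.4 and chromosome 22 had 8.79, against 4.02 on chromosome 4 and 2.93 on chromosome 13. Chromosome 11, with a CDK2 ratio of 1.01, had 9.64. Over the 22 autosomes the log2 ratio and gene density had a Pearson correlation of 0.730 and a Spearman correlation of 0.771. These are descriptions over chromosomes of the same 2 libraries, not over independent samples.

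The base composition of promoters was ordered much like the CDK2 ratio. The mean content of G and C in promoters, from 250 bases before to 50 bases after the start of each gene in the RefSeq promoter table of GRCh38.p14, was 62.7% on chromosome 22 and 62.4% on chromosome 19. It was 53.9% on chromosome 4 and 54.2% on chromosome 13. Over the 21 autosomes with entries in that table, the Pearson correlation with the log2 CDK2 ratio was 0.959 and the Spearman correlation 0.961. The part of base composition in the CDK2 ratios was not tested, since no genome of the files' build was used here to give the composition of the windows.

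**Figure D2:**
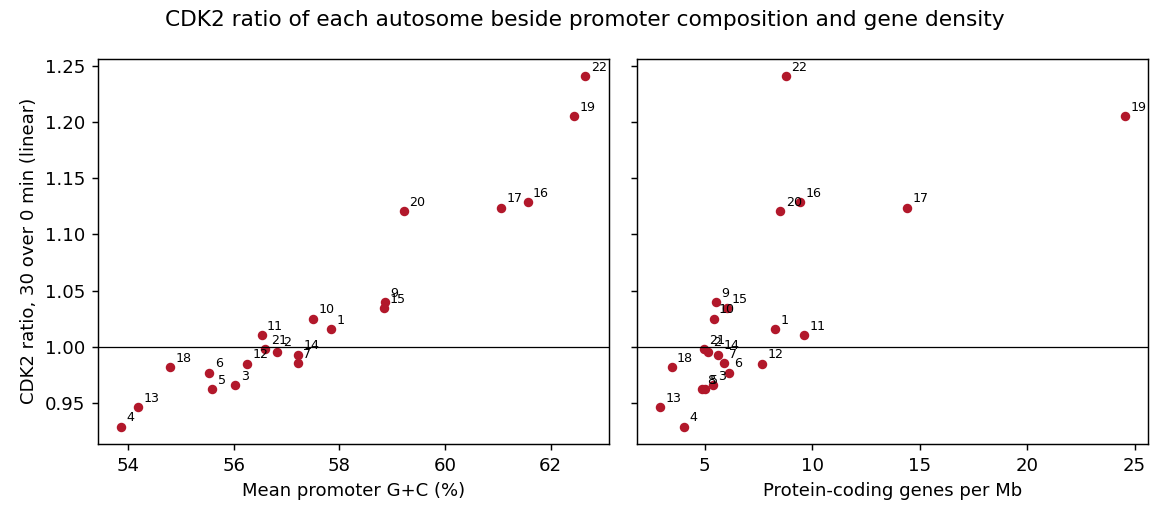
CDK2 ratio of read shares, 30 over 0 min (vertical, linear), against the mean G+C content of promoters in percent (left, 21 autosomes) and protein-coding genes per Mb (right, 22 autosomes); each point is 1 autosome, labelled by its number. The points lie close to a rising line on the left (Pearson correlation 0.959) and scatter more on the right (0.730), where chromosome 19 stands apart at 24.5 genes per Mb.

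The blocks of 1 Mb resolved the shift within chromosomes. Of the 2679 blocks, 317 (11.8%) had a ratio of at least 1.2 and 239 (8.92%) a ratio of at most 0.833. With TMM factors these became 442 and 131, with DESeq2's size factors 471 and 118, and with scaling on the lowest 10% of windows 747 and 15, which takes the higher blocks from 57.0% to 77.1, 80.0 and 98.0% of those past the limit. The quartiles of all blocks were 0.902 and 1.1, around a median of 0.990. The standard deviation of the log2 ratios over blocks was 0.206, while the error expected from the reads of a median block, with the unevenness of both libraries, was 0.0696.

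Every autosome had at least 1 block past the higher limit, and 18 of 22 had 1 past the lower limit. On chromosomes 22, 19, 16, 17 and 20 together, 118 of 309 blocks (38.2%) were past the higher limit and 4 past the lower. On the other 17 autosomes 199 of 2370 blocks (8.40%) were past the higher limit. Chromosomes 22, 19, 16, 17 and 20 were set apart because their ratios were the highest in these same libraries. The gap between the shares follows from that choice and is no separate support for the chromosome ratios. All 34 blocks of chromosome 22 lay above 1, with a lowest block of 1.02. Chromosome 4 had 40 of its 187 blocks past the lower limit, the largest number of any autosome.

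Of the 10 highest blocks, all lay within 4 Mb of a chromosome end. The first was chr9:139000001-140000000, in the gene-rich end of the long arm of chromosome 9, with 15878 reads at 0 min and 22339 at 30 min. Its ratio was 1.58 (widened interval 1.47 to 1.71), and 85 of its 96 windows lay above 1. The gene-dense tip of the short arm of chromosome 16 gave 2 of the 10, chr16:1000001-2000000 with 11830 and 16025 reads (1.52, 1.39 to 1.67) and chr16:2000001-3000000 with 11274 and 15066 reads (1.5, 1.37 to 1.65). The other end of the same chromosome gave chr16:89000001-90000000, with 17818 and 23876 reads (1.51, 1.4 to 1.62).

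The remaining 6 were spread over 5 chromosomes. Both first blocks of chromosome 19 were among them, with 1.57 for chr19:1000001-2000000 and 1.53 for chr19:1-1000000. Chromosome 20 had chr20:60000001-61000000 at 1.53, with 81 of 100 windows above 1. The block chr8:143000001-144000000 had 16408 and 22181 reads (1.52, 1.41 to 1.64). The short-arm ends of chromosomes 1 and 7 had chr1:3000001-4000000 at 1.52 (widened interval 1.35 to 1.7) and chr7:1000001-2000000 at 1.51 (1.39 to 1.63). Without the 2 windows of highest mean in each block, these 10 ratios ran from 1.49 to 1.58.

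The 10 lowest blocks all lay more than 30 Mb from a chromosome end. They were on chromosomes 4, 5, 13, 1, 2 and 8. The lowest of all, chr4:63000001-64000000, went from 11685 to 7528 reads (0.725, 0.642 to 0.818), with 26 of 100 windows above 1. On the long arm of chromosome 13, chr13:57000001-58000000 had 11915 and 7843 reads (0.741, 0.657 to 0.834) and chr13:63000001-64000000 had 13535 and 8946 reads (0.744, 0.665 to 0.831). The block chr1:188000001-189000000 was the deepest of them, with 24140 and 16048 reads (0.748, 0.688 to 0.813) and 19 of 100 windows above 1. The highest block of the genome relative to the lowest was 2.18 times higher at 30 min than at 0 min (1.89 to 2.52).

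Distance from the chromosome end ordered the blocks across the genome. Within 2 Mb of an end the median ratio was 1.25 over 78 blocks, with 61.5% past the higher limit and none past the lower. It was 1.15 at 2 to 5 Mb, 1.06 at 5 to 10 Mb, 1.04 at 10 to 20 Mb and 0.988 at 20 to 40 Mb. Beyond 40 Mb, in 1191 blocks, the median was 0.948, with 5.04% past the higher and 13.3% past the lower limit. The outermost blocks relative to those beyond 40 Mb were 1.28 times higher at 30 min than at 0 min (widened interval 1.27 to 1.29).

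The same order held without the 5 autosomes of highest ratio. On the other 17, the medians were 1.21 within 2 Mb, 1.11 at 2 to 5 Mb and 0.947 beyond 40 Mb. Of 39 chromosome arms, 35 had a higher median in the blocks within 5 Mb of the end than in the rest of the arm. On the short arm of chromosome 11 the 2 medians were 1.45 and 0.990, on the long arm of chromosome 9 they were 1.46 and 1.02, and on the long arm of chromosome 8 they were 1.36 and 0.933. The 4 arms with the opposite order were the short arms of chromosomes 3 (0.915 and 0.979), 8 (0.923 and 1.02) and 18 (0.917 and 1.03) and the long arm of chromosome 1 (0.949 and 1.00). On these 4 arms the outer blocks had the lower ratios.

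**Figure D3:**
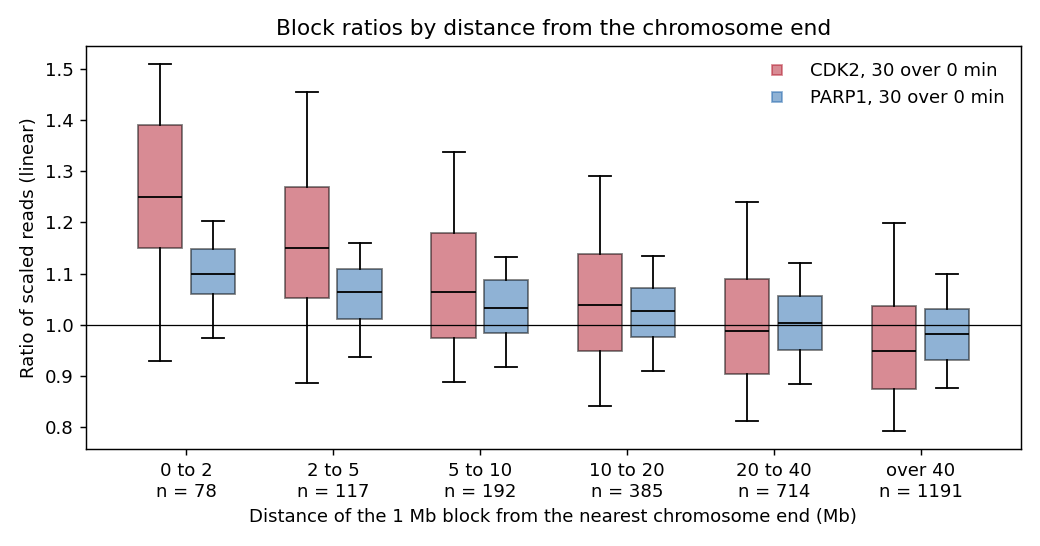
Block ratios, 30 over 0 min (linear axis), by distance of the 1 Mb block from the nearest chromosome end in Mb, for CDK2 (red) and PARP1 (blue). Boxes give the median and quartiles of the blocks and whiskers the 5th to 95th percentile; the CDK2 median goes from 1.25 in the outermost 2 Mb to 0.948 beyond 40 Mb, and the PARP1 median from 1.1 to 0.981.

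High and low blocks came in stretches. The log2 ratios of adjacent blocks had a Pearson correlation of 0.726, which was 0.385 for blocks 5 Mb apart, 0.270 at 10 Mb and 0.113 at 40 Mb. Runs of at least 3 adjacent blocks past the limit numbered 30 in each direction with scaling by totals. With TMM factors they numbered 47 higher and 8 lower, with DESeq2's size factors 54 and 5, and with scaling on the lowest 10% of windows 91 and 0. The higher runs held 136 blocks on 17 chromosomes, and 16 of the 30 began or ended within 2 Mb of a chromosome end. The lower runs held 109 blocks on 12 chromosomes, and the nearest of them to an end was 13.6 Mb away.

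The longest higher run was chr17:71000001-81000000, the last 10 blocks counted on the long arm of chromosome 17, with 187325 reads at 0 min and 222164 at 30 min. Its ratio was 1.33 (widened interval 1.30 to 1.37), and its single blocks lay between 1.24 and 1.42. Chromosome 22 had a run of 9 blocks and a run of 8, chr22:42000001-51000000 (1.31, 1.27 to 1.36) and chr22:18000001-26000000 (1.31, 1.26 to 1.36). The run chr11:64000001-72000000 lay in the interior of the long arm, 63.5 Mb from the nearest end, and had 1.30 (1.26 to 1.34). The first 6 Mb of chromosome 19 had 1.44 (1.38 to 1.51), the highest of the 7 runs with at least 6 blocks. The other 2 of 6 blocks were chr16:84000001-90000000 with 1.38 (1.34 to 1.42) and chr1:15000001-21000000 with 1.3 (1.25 to 1.36).

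Lower runs were shorter, with 7 blocks at most. The 2 longest were chr3:83000001-90000000 (0.798, 0.771 to 0.825) and chr12:81000001-88000000 (0.808, 0.784 to 0.833). Runs of 5 blocks were chr4:63000001-68000000 (0.770, 0.732 to 0.811), chr5:20000001-25000000 (0.792, 0.758 to 0.827), chr6:66000001-71000000 (0.802, 0.766 to 0.838) and chr3:162000001-167000000 (0.806, 0.781 to 0.833).

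Single chromosomes held both extremes. On chromosome 4, 6 of its 7 blocks past the higher limit lay in the first 9 Mb of the short arm, led by chr4:7000001-8000000 with 9969 and 13169 reads (1.49, 1.35 to 1.64). That block relative to the lowest one of the same chromosome was 2.05 times higher at 30 min than at 0 min (1.75 to 2.40). Chromosome 16 had both ends high and 3 blocks past the lower limit between 61000001 and 65000000. The lowest of these, chr16:62000001-63000000, had 11928 and 8129 reads (0.767, 0.682 to 0.862). Chromosome 17 had 1 such block, chr17:51000001-52000000, at 0.799.

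Read depth differed between blocks of high and low ratio. Blocks past the higher limit held a median of 11871 reads at 0 min and those past the lower limit 16374, against 14429 over all blocks. The 0 min reads are also the denominator of the ratio, so part of this gap follows from the choice of blocks. When windows were ranked by PARP1 reads at 0 min, a library on neither side of the comparison, the pooled CDK2 ratio was 1.09 in the 10% of windows with the fewest reads and 0.956 in the 10% with the most. In the classes between, it lay between 0.980 and 1.05. The part of depth in the block ratios was not tested.

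PARP1 was measured at the same times in libraries that share none with the CDK2 comparison. Over the 2679 blocks the log2 ratios of CDK2 and PARP1, each 30 over 0 min, had a Pearson correlation of 0.877 and a Spearman correlation of 0.887. Blocks are not independent replicates, and those of both antibodies share the genome's copy number and base composition. A copy number that is the same at both times cancels in each ratio. The spread was wider for CDK2, with a standard deviation of 0.206 against 0.109 for PARP1. PARP1 had only 9 blocks (0.336%) past the higher limit and 14 (0.523%) past the lower.

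Of the 317 blocks higher for CDK2, 315 had a PARP1 ratio above 1 with scaling by totals, against 51.3% of all blocks. Their median was 1.27 for CDK2 and 1.12 for PARP1. All 239 blocks lower for CDK2 had a PARP1 ratio below 1, while 1374 of all 2679 blocks lay above 1. The medians of the 239 were 0.801 for CDK2 and 0.891 for PARP1. The 2 exceptions, named because they were so few, were chr22:48000001-49000000, with 1.31 for CDK2 and 0.992 (widened interval 0.929 to 1.06) for PARP1, and chr2:88000001-89000000, with 1.21 and 0.995 (0.926 to 1.07). On 21 of 22 autosomes both antibodies lay on the same side of 1 with scaling by totals, chromosome 21 being the exception, and on 20 the CDK2 ratio lay farther from 1. The blocks of CDK2 at 30 min were also close to those of PARP1 at 5 over 0 min, with a Pearson correlation of 0.912.

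**Figure D4:**
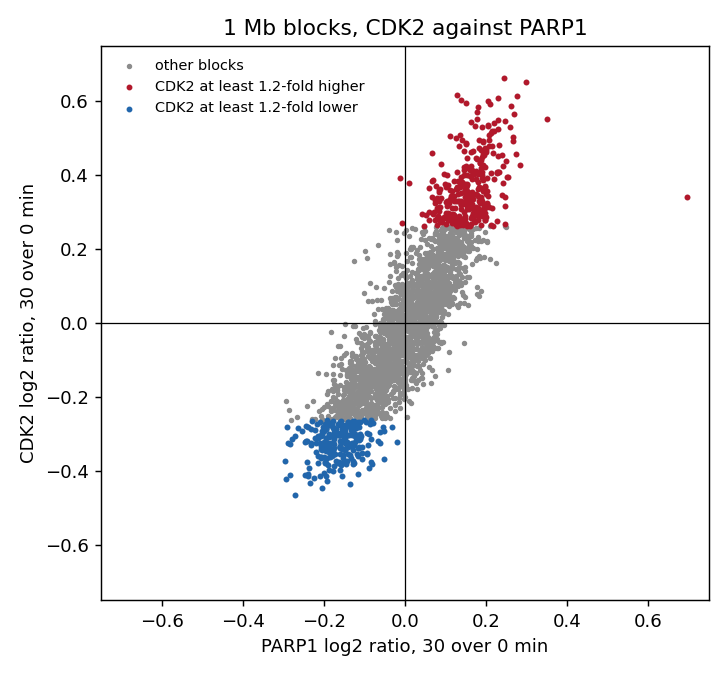
Log2 ratio of CDK2 (vertical) against that of PARP1 (horizontal), both 30 over 0 min, for 2679 blocks of 1 Mb; red marks the 317 blocks with a CDK2 ratio of at least 1.2, blue the 239 with at most 0.833. The cloud is steep, with a standard deviation of 0.206 for CDK2 and 0.109 for PARP1, and the colours fall almost wholly in opposite quadrants.

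CDK2 at 5 min shares its 0 min library with this comparison, so its values are only set beside it. The blocks higher at 30 min had a median ratio of 0.959 at 5 min, and those lower at 30 min had 1.05. With scaling by totals, 238 of the 317 lay below 1 at 5 min, against 51.8% of all blocks, and 193 of the 239 above 1, against 48.2% of all blocks. At 5 min 7 blocks (0.261%) were past the higher limit and 14 (0.523%) past the lower.

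Single windows were far more variable than blocks. Of 263610 windows, 13958 (5.29%) had a ratio of at least 2 and 28960 (11.0%) a ratio of at most 0.5, so that 32.5% of those past the limit were higher. With scaling on the lowest 10% of windows the numbers were 21282 and 22449, or 48.7% higher. With intervals widened for the unevenness of the comparison, which was 14.4 times that of independent reads, 4240 of the higher and 4088 of the lower windows had an interval clear of 1, without adjustment for the number of windows. After each library was instead divided by its own unevenness, 4196 higher and 1570 lower windows did.

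The windows still followed the blocks. Inside the blocks past the higher limit, 14.5% of windows were at least 2-fold higher and 5.32% at least 2-fold lower, with a median of 1.25. Inside those past the lower limit the shares were 1.24% and 19.4%, with a median of 0.772. In the blocks between, they were 4.36% and 10.8%. These shares describe the same reads as the block ratios and are no separate support for them.

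The correlation of CDK2 and PARP1 ratios was higher over longer regions. The Pearson correlation was 0.146 over 259398 windows of 10 kb with reads in all 4 libraries and a mean of at least 50 reads. With that minimum raised in proportion to length, it was 0.410 at 50 kb, 0.558 at 100 kb, 0.820 at 500 kb and 0.947 at 5 Mb. Over the same lengths the standard deviation of the log2 CDK2 ratio went from 0.754 to 0.171. Short regions hold fewer reads and have noisier ratios, and the part of this noise in the rise of the correlation was not tested.

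**Figure D5:**
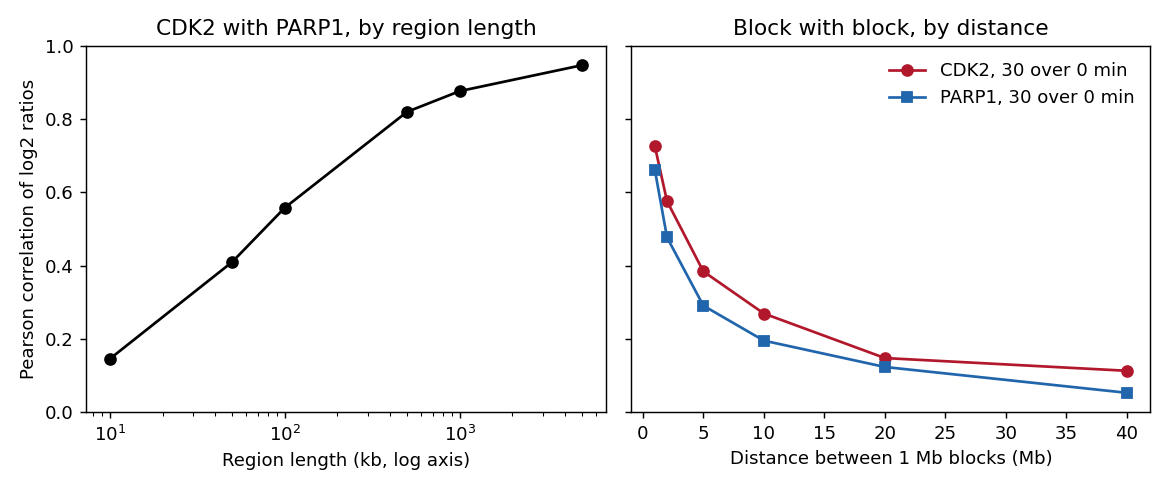
Left, Pearson correlation of the CDK2 and PARP1 log2 ratios, 30 over 0 min, by region length in kb (log axis). Right, correlation of the log2 ratio of 1 Mb blocks with that of blocks 1 to 40 Mb away on the same chromosome, for CDK2 (red) and PARP1 (blue); the left curve climbs from 0.146 to 0.947, and the CDK2 curve on the right goes from 0.726 to 0.113.

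The 8 higher windows whose lower widened bound was farthest above 1 lay on chromosomes 9, 22, 11, 19, 16, 12 and 6. The window chr22:19720001-19730000 had 51 CDK2 reads before hormone, 155 after 5 min and 305 after 30 min, a ratio of 6.73 at 30 min (widened interval 2.16 to 30.0). PARP1 had 73, 171 and 209 reads there, so all 4 treated libraries lay above their own 0 min library. The windows were chosen for their CDK2 rise, which favours few CDK2 reads at 0 min. The CDK2 reads at 5 min are set against that same library and are no separate support. The window chr11:69940001-69950000 had 87, 58 and 409 CDK2 reads (5.29, 2.16 to 15.6), while PARP1 had 170, 339 and 196 reads, higher at 5 min and with a ratio of 1.01 at 30 min. The window chr12:4790001-4800000 had 29, 136 and 227 CDK2 reads (8.81, 2.07 to 78.3), and PARP1 had 97, 137 and 98 reads. The PARP1 ratio of the 8 windows ran from 0.724 to 2.52.

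The 8 lower windows lay on chromosomes 7, 4, 5, 3, 8 and 6. They were chosen for their CDK2 fall, so a smaller change in PARP1 reads there carries no information of its own. The window chr7:75480001-75490000 had 212 CDK2 reads before hormone, 466 after 5 min and 3 after 30 min, a ratio of 0.0159 (counting interval 0.00326 to 0.0472, widened upper bound 0.360). PARP1 had 250, 257 and 181 reads there. The window chr6:18770001-18780000 had 236, 388 and 11 CDK2 reads (0.0524, widened upper bound 0.406), and PARP1 had 252, 286 and 354 reads. The window chr5:27970001-27980000 had 331, 438 and 26 CDK2 reads (0.0884, widened interval 0.00854 to 0.379), and PARP1 had 263, 170 and 241 reads. PARP1 ratios in the 8 windows ran from 0.636 to 1.24.

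Each window was also set against the 20 compared windows on each side of it, which removes the broad shift. By this measure 11872 windows (4.50%) stood at least 2-fold above their surroundings and 27562 (10.5%) at most 0.5 of them, counts that no scaling changes. Both limits were passed by 8800 of the 13958 higher windows and by 23630 of the 28960 lower ones. The window on chromosome 12 led, at 9.13 times its surroundings (widened interval 2.15 to 81.2). The next, chr2:185680001-185690000, had 87 CDK2 reads at 0 min and 302 at 30 min in surroundings with a ratio of 0.747, and stood at 5.23 times them (2.05 to 15.8), while PARP1 had 141, 109 and 125 reads at 0, 5 and 30 min. In chr14:27090001-27100000, where the surroundings had 0.684, CDK2 went from 118 to 312 reads, 4.35 times its surroundings (1.87 to 11.2), and PARP1 had 214, 143 and 187 reads.

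Of the windows far below their surroundings, chr9:4240001-4250000 held 146 CDK2 reads before hormone, 160 after 5 min and 0 after 30 min. Its ratio was 0, with a counting upper bound of 0.0288 and a widened upper bound of 0.494. PARP1 had 134, 133 and 120 reads there. The window chr19:46450001-46460000 held 171, 147 and 4 CDK2 reads inside surroundings with a ratio of 1.21. PARP1 had 143, 142 and 175 reads there. In all, 386 windows with CDK2 reads at 0 min had none at 30 min and 10 had the reverse. The windows without CDK2 reads at 30 min numbered 389, or 0.148% of the compared windows. Of these, 370 were in the 10% of windows with the fewest PARP1 reads at 0 min. Windows were not assigned to genes, since the gene table used here is of another build than the files.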

How the data were processed

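CDK2 and PARP1 ChIP-seq reads were counted by the authors in consecutive windows of 10 kb, and the deposited values are raw read counts with 1 column per library and no normalization. The aligner was Bowtie 1.0.0 and the genome GRCh37 (hg19), as the submitters' processing notes list them, with duplicates and multiple matches treated in a way not given in the sources used here. An input library was not analysed here. Positions are 1-based in hg19.

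From these counts, shares, ratios of sums and correlations were computed with Python 3.11.15, numpy 2.4.6, scipy 1.17.1 and pandas 2.3.3. Library totals lay between 40097131 and 63448449 reads. With 1 library a side there was no test; a region was called by its fold alone. Counting intervals are exact (Clopper-Pearson) and cover counting error only. Widened intervals for chromosomes, blocks and runs use the dispersion of each library, the robust variance of differences between neighbouring windows over its Poisson expectation. Those for windows divide both counts by the dispersion around the local ratio. The procedure was tested on simulated data. A chromosome's ends were the first and last position of the table, except on chromosomes 13, 14, 15, 21 and 22, where only the last was used. Arms were divided at the longest run of windows without reads.

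Named in the text are all autosomes, the 10 highest and 10 lowest blocks, the 6 longest runs in each direction with 1 more tied in length, and windows from the 8 on each side whose widened bound lay farthest from 1, at most 1 per 100 kb; extra blocks of chromosomes 4, 16, 17, 22 and 2 were chosen after their values were seen. The regions, limits and lists were chosen with earlier results of these data known. The 3 gene lists were not evaluated, as no gene table of the build was used here. TMM factors came from edgeR 4.0.16 and size factors from DESeq2 1.42.0, in R 4.3.3, for scaling only. Figures were drawn with matplotlib 3.10.9.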

Additional observations from a re-analysis of the deposited data

Results flagged for a closer look

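On 13 autosomes the CDK2 share of reads lay on opposite sides of its 0 min value at 5 and at 30 min, with scaling by totals and with both widened intervals clear of 1. With TMM factors the size of the 5 min library went from 57793168 to 56086117 reads. That of the 0 min library went from 45111064 to 45742149. These sizes raise all CDK2 ratios at 5 min together, so the side of 1 depends on the scaling. The sides at 5 min were not recounted with other scalings. Each time has 1 library, and the difference between the times was not tested. The ratio of the 30 min share to the 5 min share, which does not use the 0 min library, was 1.30 on chromosome 22 (widened interval 1.26 to 1.33), 1.23 on chromosome 19 (1.21 to 1.26), 1.18 on chromosome 16, 1.16 on chromosome 17 and 1.15 on chromosome 20. It was 1.05 on chromosome 9, 1.05 on chromosome 15 and 1.02 on chromosome 11. It was 0.975 on chromosome 7, 0.956 on chromosome 3, 0.953 on chromosome 5, 0.924 on chromosome 13 (0.911 to 0.937) and 0.909 on chromosome 4 (0.899 to 0.918). The 5 min library was the least even of the 6, with a dispersion of 52.2 and 2735 compared windows without reads.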

How the results depend on the processing

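No paired analysis was possible because each antibody and time has 1 library. For the same reason no replicate was left out.

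Scaling moved regions just below 1 to the other side. Every alternative scaling raised all CDK2 ratios together, so the 10 autosomes above 1 with totals could not fall below it. With TMM factors, chromosome 22 had 1.28 and chromosome 4 had 0.961, 17 autosomes lay above 1, 131 blocks were past the lower limit, and runs numbered 47 higher and 8 lower; chromosomes 6, 7, 12 and 18 turned to 1.01, 1.02, 1.02 and 1.02, and chromosomes 2, 14 and 21 to 1.03 each. With DESeq2's size factors, the values were 1.29, 0.967, 20 autosomes, 118 blocks, and 54 and 5 runs; chromosomes 3, 5, 6, 7, 8, 12 and 18 turned to 1.01, 1.00, 1.02, 1.03, 1.00, 1.03 and 1.02, and chromosomes 2, 14 and 21 to 1.04, 1.03 and 1.04. With scaling on the 10% of windows that had the lowest mean, chromosome 22 had 1.37 and chromosome 4 turned to 1.03; all 22 autosomes lay above 1, with chromosomes 3, 5, 6, 7, 8, 12, 13 and 18 at 1.07, 1.06, 1.08, 1.09, 1.06, 1.09, 1.05 and 1.08, and chromosomes 2, 14 and 21 at 1.1 each. Under it 21282 windows were higher, 747 blocks were higher and 15 lower, and runs numbered 91 and 0. The medians by distance became 1.38 in the outermost 2 Mb and 1.05 beyond 40 Mb, and the pooled ratios by PARP1 reads became 1.2 in the 10% of windows with the fewest and 1.06 in the 10% with the most. None of the 10 lowest blocks changed side under any scaling, and the 10 highest could not, since every alternative raised the ratios.

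Limits and lengths moved the counts by construction. At 1.5-fold 43516 windows were higher and 60790 lower, and at 3-fold 1842 and 10205. With dispersion-divided libraries 4196 and 1570 had an interval clear of 1. At 1.1-fold 677 blocks were higher and 739 lower, and at 1.4-fold 40 and 0. Blocks of 500 kb gave 737 and 614, and blocks of 2 Mb gave 135 and 91. Runs of at least 2 blocks numbered 75 and 53. Of alternatives chosen after seeing the data, the correlation with PARP1 at 10, 50 and 100 kb was 0.146, 0.410 and 0.558. Count minimums and leaving out the 1% of windows of highest mean moved none of the counts by over 1.5 times. Depth and the single library a side limit all values.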
